A study of Mus musculus with 12 samples.

Results

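Fatty acid oxidation genes of mouse liver were described here across 2 genotypes and 2 diets: 33 genes of the carnitine shuttle, mitochondrial and peroxisomal beta-oxidation, electron transfer, ketone synthesis and microsomal omega-oxidation, together with the nuclear receptor PPARA and genes known as its targets. They were chosen by name from a list of 36 genes, taking probe sets annotated with exactly 1 of these symbols. Each gene was read from its brightest such probe set, judged by the mean of the 12 arrays. The array covered 12393 genes in all. Acsl1 and Ucp2 were not analysed here. Cyp4a10 had only a probe set shared with Cyp4a31 and was kept apart as a signal of both genes.

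The study compared wild-type and POR-null male mice, labelled C57BL/6 in every group and aged 6 to 8 weeks. POR, cytochrome P450 reductase, passes electrons from NADPH to the microsomal P450 enzymes. The allele, and the cells in which it was deleted, are not named in its labels. After 14 days on a Soya-free powdered diet, RM3 (E) 801710, control mice stayed on it. The others ate the same powder mixed with the plant flavonol quercetin, 6.2 g in each kg or 7 mg per mouse, and whole livers were taken 24 h later. Each of the 4 groups (wild-type control, wild-type quercetin, POR-null control and POR-null quercetin) held 3 arrays, with RNA pooled from 3 mice on every one. Genotype labels could not be set against the Por transcript, which was not analysed here.

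Fatty acids enter mitochondria as carnitine esters. Carnitine palmitoyltransferase 1, inhibited by malonyl-CoA, makes the ester at the outer membrane, and carnitine palmitoyltransferase 2 turns it back to acyl-CoA inside. Each turn of beta-oxidation then runs through a dehydrogenase, a hydratase, a second dehydrogenase and a thiolase, the electrons of the first step pass through electron transfer flavoprotein, and in fasted liver much of the acetyl-CoA becomes ketone bodies. PPARA, bound by fatty acids and paired with RXR, activates many of these genes during fasting. Very long and dicarboxylic acids are shortened in peroxisomes, and CYP4A enzymes, which draw their electrons from POR, start omega-oxidation in the microsomes.

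PPARA and RXR bind a direct repeat of the half-site AGGTCA with 1 base between its copies, so the promoters of the members were read for it. RefSeq promoter windows of build GRCm38.p6, 250 bases before to 50 bases after the gene start, were at hand for 25 of the 33 members. The exact repeat AGGTCANAGGTCA, searched on both strands, was in 0 of the 25 and in 0.0396% of 32851 windows of the same length. The looser form AGGNCANAGGNCA was in 0.381% of windows and in 1 member, Fabp1, the liver fatty acid binding protein. A single half-site AGGTCA was in 16.3% of windows and in 4 of 25 members (16%): Acadm, Acadvl, Cpt1a and Fabp1. The half-site share of the members was close to that of all windows. Shown here are the 250 bases before the start of Fabp1, the member with the looser repeat, and of Cpt1a and Acadm, members with a half-site that were higher in POR-null liver. The other members with a half-site, Acadvl and Fabp1, lay below 0 there, at -0.15 and -0.20 averaged over diets. A link between half-sites and direction was not tested. Capitals mark the matches.
Fabp1 (chr6:71199629-71199878, plus strand): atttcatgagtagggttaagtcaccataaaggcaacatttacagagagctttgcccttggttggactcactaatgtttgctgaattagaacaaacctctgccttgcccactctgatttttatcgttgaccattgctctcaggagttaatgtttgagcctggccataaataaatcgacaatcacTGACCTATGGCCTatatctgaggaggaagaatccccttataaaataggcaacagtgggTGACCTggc
Cpt1a (chr19:3323051-3323300, plus strand): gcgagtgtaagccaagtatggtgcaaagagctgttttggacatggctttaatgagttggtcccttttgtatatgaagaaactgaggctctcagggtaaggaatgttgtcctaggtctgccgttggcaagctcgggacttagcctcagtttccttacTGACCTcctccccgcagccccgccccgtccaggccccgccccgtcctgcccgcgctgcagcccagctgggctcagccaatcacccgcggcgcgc
Acadm (chr3:153944644-153944893, minus strand): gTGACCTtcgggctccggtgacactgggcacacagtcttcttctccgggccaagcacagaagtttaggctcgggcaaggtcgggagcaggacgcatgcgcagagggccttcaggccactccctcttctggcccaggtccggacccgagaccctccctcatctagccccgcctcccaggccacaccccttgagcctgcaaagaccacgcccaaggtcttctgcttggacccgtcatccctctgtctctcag
The Fabp1 match TGACCTATGGCCT lay 67 to 55 bases before the start and its first 6 bases also match the half-site. A second half-site lay 9 to 4 bases before the start of Fabp1. The half-site of Cpt1a lay 94 to 89 bases before its start, and that of Acadm 249 to 244 bases before. These are matches of letters in 1 window per gene and were not tested as sites.

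Within groups, arrays correlated at r = 0.9878 to 0.9929. Some arrays correlated more closely with an array of another group. The nearest array was at r = 0.9933 for wild-type control array 1 and wild-type quercetin array 2. It was at r = 0.9934 for POR-null control array 1 and POR-null quercetin array 2. Hepatocyte markers (6 measured, among them Fgb) had a mean log2 level between 12.9 and 13.1 on every array. Wild-type control arrays 2 and 3 stood apart from array 1 on the second principal component (-17.75 and -16.22 against 12.12). On that component wild-type control array 1 lay within the range of the wild-type quercetin arrays, 8.145 to 16.91. Without array 1, 756 probe sets were called for POR-null on the control diet in place of 262, and 151 for quercetin in wild type in place of 0. Of 10 macrophage and Kupffer cell markers, 9 were above 0 in POR-null against wild-type control liver (median log2 difference 0.50), beside 46.1% of all genes. When both diets were averaged 4 of 10 rose, beside 5.08% of all genes. On the quercetin diet 8 of 10 were above 0 (1 rose, median 0.39), beside 43.7% of all genes above 0. The mean level of these markers was 7.07 to 7.59 in wild-type control arrays, 7.25 to 8.12 in wild-type quercetin, 7.65 to 7.97 in POR-null control and 7.76 to 7.94 in POR-null quercetin. All 8 stellate and endothelial markers were above 0 in POR-null control liver (1 rose, beside 0.92% of all genes, median 0.24), with wild-type levels of 6.67 to 6.79 against 6.90 to 7.14. On the quercetin diet 5 of the 8 were above 0 (0 rose, median 0.015). Exocrine pancreas markers (7 measured) reached a mean of 10.0 in POR-null quercetin array 3, against 6.72 to 8.73 in the 9 arrays of the other groups. Adipocyte markers (5 measured) had a mean level between 6.28 and 6.68, raised by Car3 at a mean of 11.9. The others were Adipoq at 4.08, Lep at 4.16, Cidea at 5.57 and Retn at 6.81. Brown fat and muscle markers (5 measured, Myh4 lowest at 3.49) lay between 5.03 and 6.01. The transferrin receptor control, as its 3′ minus its 5′ log2 signal, was 0.991 to 1.28 in wild type and 1.17 to 1.37 in POR-null. For actin the same measure was 0.79 to 1.005 in wild type and 0.826 to 1.018 in POR-null. In the same order, Gapdh gave -0.225 to -0.14 and -0.219 to -0.121, and pyruvate carboxylase 1.72 to 2.58 and 1.90 to 2.46. The part of these differences in the genotype results below was not tested. In RNA of a whole organ, fewer cells of a type and less RNA per cell cannot be told apart.

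**Figure D1:**
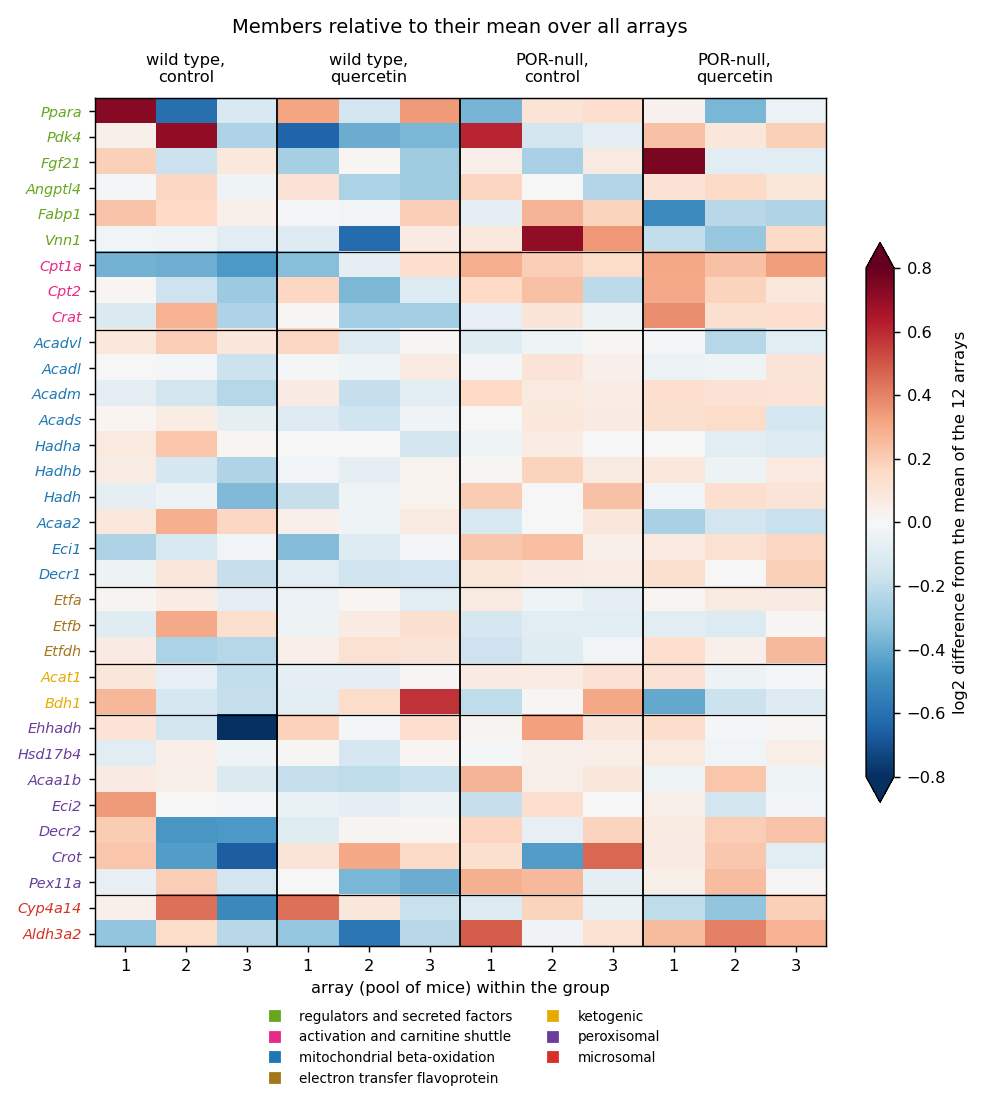
Members by array. Each row is a gene, grouped and coloured by its step, each column is an array, and colour is the log2 difference from the gene's mean over the 12 arrays, saturating at the ends of the scale. Cpt1a is low in the wild-type control arrays and high in all 6 POR-null arrays, and Ppara, Crot, Decr2 and Ehhadh are uneven among the wild-type control arrays.

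The first question was how fatty acid oxidation genes of POR-null liver compared with those of wild type. Averaged over both diets, 6 POR-null against 6 wild-type arrays, 4 members rose and 1 fell. Cpt1a and the microsomal fatty aldehyde dehydrogenase Aldh3a2 rose by 1.42-fold each, the enoyl-CoA isomerase Eci1 by 1.22-fold and the medium-chain dehydrogenase Acadm by 1.16-fold, while the thiolase Acaa2 fell to 0.867-fold. These 5 were 15.2% of the members, beside 7.94% of the 12393 genes called in that comparison (5.08% higher and 2.86% lower). Among 1025 genes with a mean log2 level above 9, a set chosen after seeing the data because most members are of that brightness, 20.1% were called. That is more than the 15.2% of the members, each read from its brightest probe set. With the mean of a gene's probe sets 7 members were called, and the share of all genes in that fit is not given here. A gene is called here at an adjusted p under 0.05 in limma, adjusted over 22626 probe sets, and differences are on the log2 scale.

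Of the 33 members, 24 lay above 0 in POR-null liver, with a median of 0.11 beside -0.02 over all genes and 0.05 over the brighter genes, of which 62.6% were above 0. The lean changed with the scaling of the arrays. After quantile normalization 17 members lay above 0, with a median of 0.0059, and the calls were 2 higher (Cpt1a and Aldh3a2) and 2 lower (Acaa2 and Acadvl) in place of 4 higher and 1 lower. The 7 members whose sign changed were Angptl4, Acadl, Acads, Etfa, Etfdh, Acat1 and Hsd17b4. On the control diet 22 members lay above 0 and 17 after quantile normalization, and on the quercetin diet 22 and 16.

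**Figure D2:**
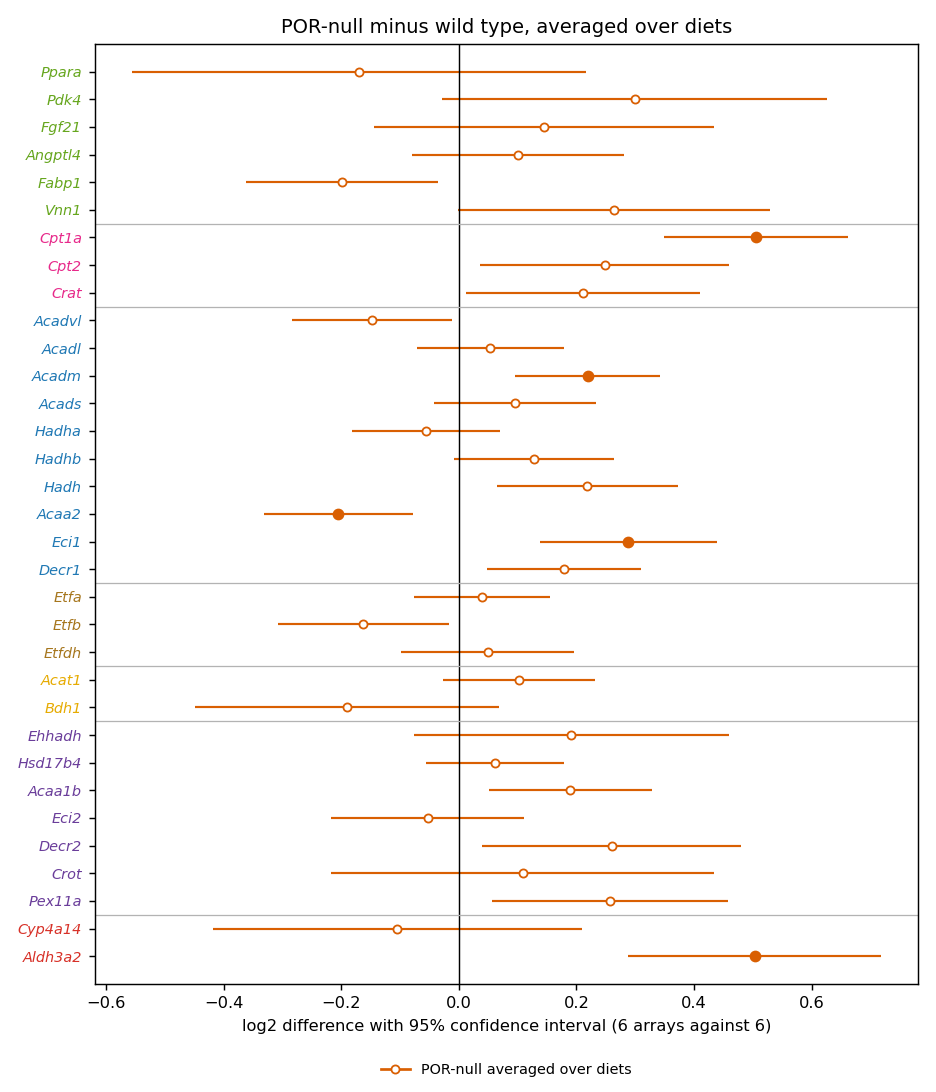
POR-null minus wild type for each member, averaged over diets. The horizontal axis is the log2 difference with its 95% confidence interval, 6 arrays against 6, filled points are members past the adjusted p of 0.05 and open points are not, and colours are the steps. Cpt1a and Aldh3a2 lie farthest to the right, at 0.51 and 0.50, and Acaa2 is the filled point below 0.

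In the carnitine shuttle all 3 members lay above 0 in POR-null liver on each diet, also after quantile normalization. Cpt1a (1460409_at), the liver form of carnitine palmitoyltransferase 1, read 10.21, 10.20 and 10.13 in wild-type control arrays 1 to 3 and 10.88, 10.79 and 10.74 in POR-null control. With quercetin it read 10.25, 10.51 and 10.72 in wild type and 10.90, 10.82 and 10.92 in POR-null. Every POR-null array was above every wild-type array, and the highest wild-type value, 10.72 in wild-type quercetin array 3, lay just below the lowest POR-null value, 10.74 in POR-null control array 3. On the control diet Cpt1a rose by 0.62 (SE 0.10, 95% confidence interval 0.40 to 0.84, 1.54-fold, adjusted p = 0.0142). It was the 1 member called there, 3.03% of 33 beside 1.24% of all genes (0.92% higher) and 4.2% of the brighter genes (3.61% higher). The call was lost on leaving out wild-type control array 2, wild-type control array 3 or array 1 of POR-null control, at adjusted p = 0.0619, 0.0549 and 0.0731. With quercetin the difference was 0.39 (SE 0.10, adjusted p = 0.0643), and without wild-type quercetin array 3 it was 0.50 (adjusted p = 0.026).

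Averaged over diets Cpt1a rose by 0.51 (SE 0.07, adjusted p = 0.00121), and it was called in each of the 12 fits that left out 1 array. Its other probe sets ran the same way, at 0.70 (SE 0.13, adjusted p = 0.00444) for 1438156_x_at and 0.56 (SE 0.17, adjusted p = 0.0541) for 1434866_x_at. Cpt2, the inner membrane transferase, read 10.18, 10.00 and 9.88 in wild-type control, 10.33, 9.81 and 10.06 in wild-type quercetin, 10.33, 10.40 and 9.96 in POR-null control and 10.47, 10.35 and 10.25 in POR-null quercetin. Its arrays overlapped between genotypes, and the averaged difference was 0.25 (SE 0.10, adjusted p = 0.146). Without POR-null control array 3 both Cpt2 and the peroxisomal Pex11a were called in the averaged comparison, so that 7 members passed. Crat, which moves short acyl groups onto carnitine, differed by 0.39 (SE 0.13, adjusted p = 0.143) on the quercetin diet, where POR-null arrays (7.95, 7.71 and 7.71) all lay above wild type (7.59, 7.31 and 7.30). On the control diet it differed by 0.03 (SE 0.13). The probe sets of Crat disagreed: averaged over diets the brighter one differed by 0.21 (SE 0.09) and 1448544_at by -0.15 (SE 0.09, adjusted p = 0.316).

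**Figure D3:**
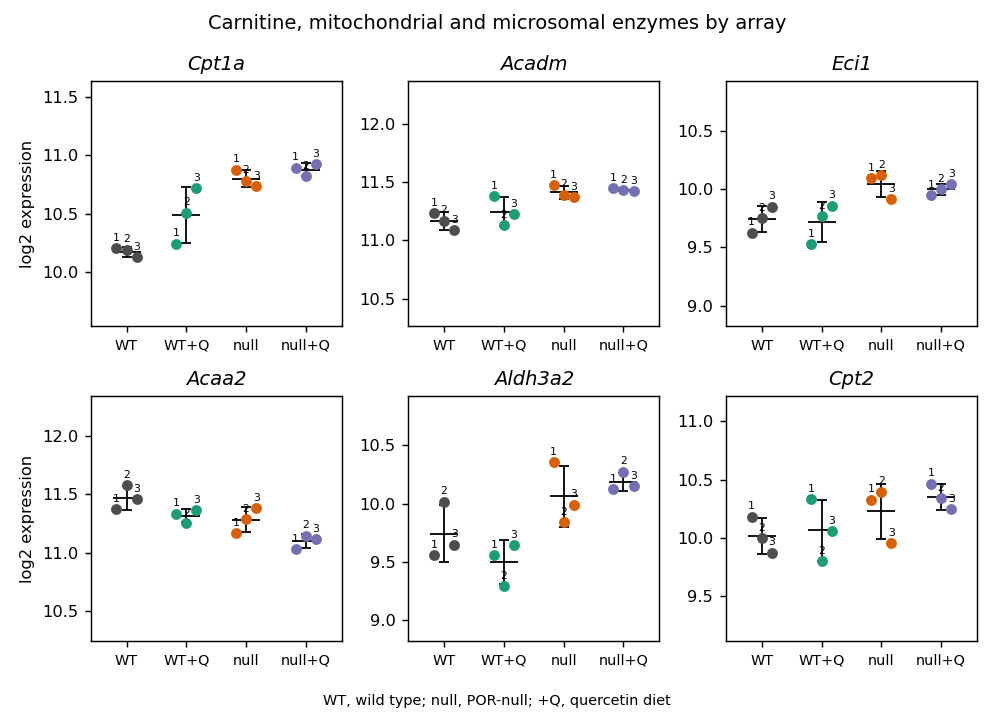
Log2 expression by array of the 5 members called in a genotype comparison and of Cpt2. WT is wild type, null is POR-null and +Q the quercetin diet, each point is an array (a pool of 3 mice) with its number, the bars are mean ± SD of 3 arrays, and each axis spans the same number of log2 units. The Cpt1a groups separate by genotype, while Acadm and Eci1 differ by 0.22 and 0.29 averaged over diets.

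Mitochondrial beta-oxidation held 10 members, of which 2 rose, 1 fell and 7 did not pass averaged over diets. Acadm (1415984_at), the medium-chain acyl-CoA dehydrogenase, read 11.24, 11.17 and 11.09 in wild-type control and 11.48, 11.39 and 11.37 in POR-null control. With quercetin it read 11.38, 11.13 and 11.23 in wild type and 11.45, 11.43 and 11.42 in POR-null. Within each diet the genotypes did not overlap. The difference was 0.25 (SE 0.08, adjusted p = 0.152) on the control diet and 0.19 (SE 0.08, adjusted p = 0.26) on the quercetin diet. Averaged, Acadm rose by 0.22 (SE 0.06, adjusted p = 0.0328). It was called in 3 of the 12 fits without 1 array: those without wild-type control array 1, wild-type quercetin array 1 or POR-null control array 3.

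Eci1 (1418321_at), which shifts double bonds of unsaturated acyl-CoA so that they can be oxidized, read 9.63, 9.75 and 9.85 in wild-type control and 10.09, 10.12 and 9.91 in POR-null control. The quercetin arrays read 9.53, 9.77 and 9.86 in wild type and 9.95, 10.00 and 10.04 in POR-null. All 6 POR-null arrays lay above all 6 wild-type arrays. Eci1 differed by 0.30 (SE 0.10, adjusted p = 0.158) and 0.28 (SE 0.10, adjusted p = 0.167) on the control and quercetin diets and rose by 0.29 when averaged (SE 0.07, adjusted p = 0.0228). Its call was lost without wild-type quercetin array 1, POR-null control array 1 or 2, or POR-null quercetin array 2 or 3, at adjusted p up to 0.0588. Neither Eci1 nor Acadm was called after quantile normalization.

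Acaa2 (1428146_s_at), the mitochondrial thiolase of the last step, went the other way. Its arrays read 11.38, 11.58 and 11.46 in wild-type control, 11.17, 11.29 and 11.38 in POR-null control, 11.33, 11.26 and 11.37 in wild-type quercetin and 11.03, 11.15 and 11.11 in POR-null quercetin. The POR-null quercetin arrays were the lowest of the 4 groups, without overlap with any other group. Averaged over diets Acaa2 fell by 0.21 (SE 0.06, adjusted p = 0.0491). That call stood in 2 of the 12 fits without 1 array (leaving out array 1 of wild-type control, or array 3 of POR-null control), with adjusted p up to 0.122 in the others. Its other probe sets differed by -0.08 (SE 0.07, adjusted p = 0.573) for 1428145_at and -0.14 (SE 0.07, adjusted p = 0.252) for 1455061_a_at, neither of them called.

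The remaining mitochondrial enzymes differed by -0.15 to 0.22 averaged over diets and did not pass. Hadh, the short-chain hydroxyacyl-CoA dehydrogenase, read 11.50, 11.54 and 11.23 in wild-type control and 11.79, 11.58 and 11.82 in POR-null control. The genotypes did not overlap on that diet (0.30, SE 0.10, adjusted p = 0.16), and the averaged difference was 0.22 (SE 0.07, adjusted p = 0.0803). A second Hadh probe set, 1460184_at, rose by 0.36 (SE 0.08, adjusted p = 0.0117) averaged over diets, and another, 1436756_x_at, by 0.17 (SE 0.04, adjusted p = 0.035). Decr1, the dienoyl-CoA reductase for unsaturated acids, differed by 0.24 (SE 0.09, adjusted p = 0.171) on the quercetin diet, without overlap, and its other probe set 1449443_at rose by 0.32 (SE 0.09, adjusted p = 0.0435) averaged over diets. The very long-chain dehydrogenase Acadvl lay lower, at -0.15 (SE 0.06, adjusted p = 0.178) averaged. The trifunctional protein subunits Hadha and Hadhb differed by -0.06 (SE 0.06) and 0.13 (SE 0.06). The long-chain and short-chain dehydrogenases Acadl and Acads differed by 0.05 (SE 0.06) and 0.10 (SE 0.06).

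Electron transfer flavoprotein carries the electrons of the first dehydrogenase step to the respiratory chain, and 0 of its 3 genes passed. Etfb read 11.54, 11.94 and 11.77 in wild-type control and 11.50, 11.55 and 11.55 in POR-null control, a difference of -0.21 (SE 0.10, adjusted p = 0.3). Wild-type control array 2 was the highest and array 1 lay inside the POR-null range, and without array 1 the averaged difference was -0.22 (adjusted p = 0.0371) against -0.16 (SE 0.07, adjusted p = 0.167) with it. On the control diet the difference of Etfb was -0.12 without array 2 (adjusted p = 0.658) and -0.32 without array 1 (adjusted p = 0.0633). Etfa differed by 0.04 (SE 0.05) and the dehydrogenase Etfdh by 0.05 (SE 0.07) averaged over diets.

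Of the ketone pathway, 2 genes were members, and 0 passed. Acat1, which joins 2 acetyl-CoA into acetoacetyl-CoA, read 10.73, 10.57 and 10.44 in wild-type control and 10.70, 10.69 and 10.75 in POR-null control, and the averaged difference was 0.10 (SE 0.06, adjusted p = 0.333). Its probe sets disagreed in size: 1424182_at rose by 0.31 (SE 0.07, adjusted p = 0.00991) averaged over diets and by 0.37 (SE 0.09, adjusted p = 0.0494) on the quercetin diet. Bdh1, which turns acetoacetate into beta-hydroxybutyrate, read 9.76, 10.00 and 10.43 in wild-type quercetin and 9.44, 9.68 and 9.75 in POR-null quercetin. On that diet the POR-null arrays were all lower (-0.44, SE 0.17, adjusted p = 0.202), while on the control diet the difference was 0.06 (SE 0.17). The quercetin-diet value of Bdh1 ranged from -0.59 to -0.26 without 1 array.

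Among 7 peroxisomal members 6 lay above 0 averaged over diets (5 after quantile normalization) and 0 passed. Ehhadh, the bifunctional enzyme induced by PPARA agonists, read 10.19, 9.94 and 9.23 in wild-type control and 10.10, 10.41 and 10.17 in POR-null control. Wild-type control array 3 was the lowest of all 12 arrays, array 1 lay within the POR-null range, and the difference was 0.44 (SE 0.18, adjusted p = 0.238). Decr2, the peroxisomal dienoyl-CoA reductase, had the same unevenness, with 10.00, 9.33 and 9.33 in wild-type control and 9.97, 9.72 and 9.97 in POR-null control (0.34, SE 0.15, adjusted p = 0.28). Without wild-type control array 1 both Ehhadh and Decr2 were called higher on the control diet beside Cpt1a, so that 3 members passed in place of 1, and averaged over diets Decr2 and Etfb were added to the 5 members called. Without wild-type control array 3, its lowest, the control-diet difference of Ehhadh was 0.16 (adjusted p = 0.62). On the quercetin diet, where the wild-type arrays lay close together, Ehhadh differed by -0.06 (SE 0.18) and Decr2 by 0.19 (SE 0.15).

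Acaa1b, a peroxisomal thiolase, read 12.31, 12.30 and 12.33 in wild-type quercetin and 12.47, 12.73 and 12.47 in POR-null quercetin. These groups did not overlap, and the difference was 0.24 (SE 0.09, adjusted p = 0.189), with 0.19 (SE 0.06, adjusted p = 0.0911) averaged over diets. Pex11a, which takes part in peroxisome division, read 9.69, 9.32 and 9.29 and 9.73, 9.93 and 9.69 in the same groups, again without overlap (0.36, SE 0.13, adjusted p = 0.184). Its other probe set 1419365_at rose by 0.58 (SE 0.14, adjusted p = 0.0207) averaged over diets, where the chosen one differed by 0.26 (SE 0.09). Crot, the peroxisomal carnitine octanoyltransferase, ran from 9.95 to 10.83 within wild-type control and from 10.16 to 11.06 within POR-null control, and the difference averaged over diets was 0.11 (SE 0.15). The multifunctional enzyme Hsd17b4 and the isomerase Eci2 differed by 0.06 (SE 0.05) and -0.05 (SE 0.08).

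The microsomal members parted. Aldh3a2 (1415776_at), which oxidizes fatty aldehydes to acids, read 9.56, 10.02 and 9.65 in wild-type control and 10.35, 9.84 and 9.99 in POR-null control. On the quercetin diet it read 9.56, 9.29 and 9.65 and 10.13, 10.27 and 10.15. The control groups overlapped through wild-type array 2, and the quercetin groups did not overlap. Aldh3a2 differed by 0.32 (SE 0.14, adjusted p = 0.288) on the control diet (0.18 to 0.46 without 1 array) and rose by 0.68 on the quercetin diet (SE 0.14, 95% confidence interval 0.38 to 0.99, 1.61-fold, adjusted p = 0.0215). It was the 1 member called on that diet, 3.03% of 33 beside 2.49% of all genes (1.86% higher and 0.629% lower) and 8.49% of the brighter genes (6.05% higher). Of the 6 fits without 1 array of these groups only that without wild-type quercetin array 3 kept the call (adjusted p up to 0.115). Averaged over diets it rose by 0.50 (SE 0.10, adjusted p = 0.00755) and was called in each of 12 fits without 1 array.

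Cyp4a14, an omega-hydroxylase and a classic PPARA target, read 11.30, 11.70 and 10.74 in wild-type control, 11.70, 11.35 and 11.08 in wild-type quercetin, 11.15, 11.44 and 11.20 in POR-null control and 11.06, 10.94 and 11.45 in POR-null quercetin. Wild-type control alone ran from 10.74 to 11.70 and spanned every other group's mean. Averaged over diets the difference was -0.10 (95% confidence interval -0.42 to 0.21). The probe set shared by Cyp4a10 and Cyp4a31 read 12.86, 12.58 and 12.74 in wild-type quercetin and 12.45, 12.01 and 12.54 in POR-null quercetin, without overlap, a difference of -0.40 (SE 0.14, adjusted p = 0.148). On the control diet the genotypes overlapped and differed by -0.11 (SE 0.14). With quercetin this probe set was wholly higher in wild type, at 0.26 (SE 0.14, adjusted p = 0.624), and differed by -0.02 (SE 0.14) in POR-null.

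Of the receptor and the 5 other regulatory and secreted members, 0 passed in a genotype comparison. Ppara read 9.45, 8.12 and 8.60 in wild-type control, 9.04, 8.57 and 9.06 in wild-type quercetin, 8.35, 8.83 and 8.85 in POR-null control and 8.75, 8.35 and 8.67 in POR-null quercetin. Wild-type control arrays held both its highest and its lowest value, and the averaged difference was -0.17 (95% confidence interval -0.56 to 0.22). Vnn1, a pantetheinase that PPARA activates, read 8.93, 8.93 and 8.87 in wild-type control against 9.04, 9.66 and 9.30 in POR-null control. Those groups did not overlap and differed by 0.42 (SE 0.18, adjusted p = 0.253), beside 0.10 (SE 0.18) on the quercetin diet. Leaving out 1 array moved the control-diet value of Vnn1 between 0.26 and 0.57.

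Pdk4, the kinase that shuts pyruvate dehydrogenase when fat is burned, read 4.75, 4.99 and 5.03 in wild-type quercetin and 5.62, 5.49 and 5.58 in POR-null quercetin. It was higher in POR-null there without overlap (0.64, SE 0.22, adjusted p = 0.147), while on the control diet the difference was -0.04 (SE 0.22). The fasting hormone Fgf21 differed by 0.37 (SE 0.19) on the quercetin diet, where POR-null array 1 read 7.03 against 6.20 and 6.19 in the others. Angptl4, a secreted inhibitor of lipoprotein lipase, differed by 0.26 (SE 0.12, adjusted p = 0.286) there and by -0.06 (SE 0.12) on the control diet.

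**Figure D4:**
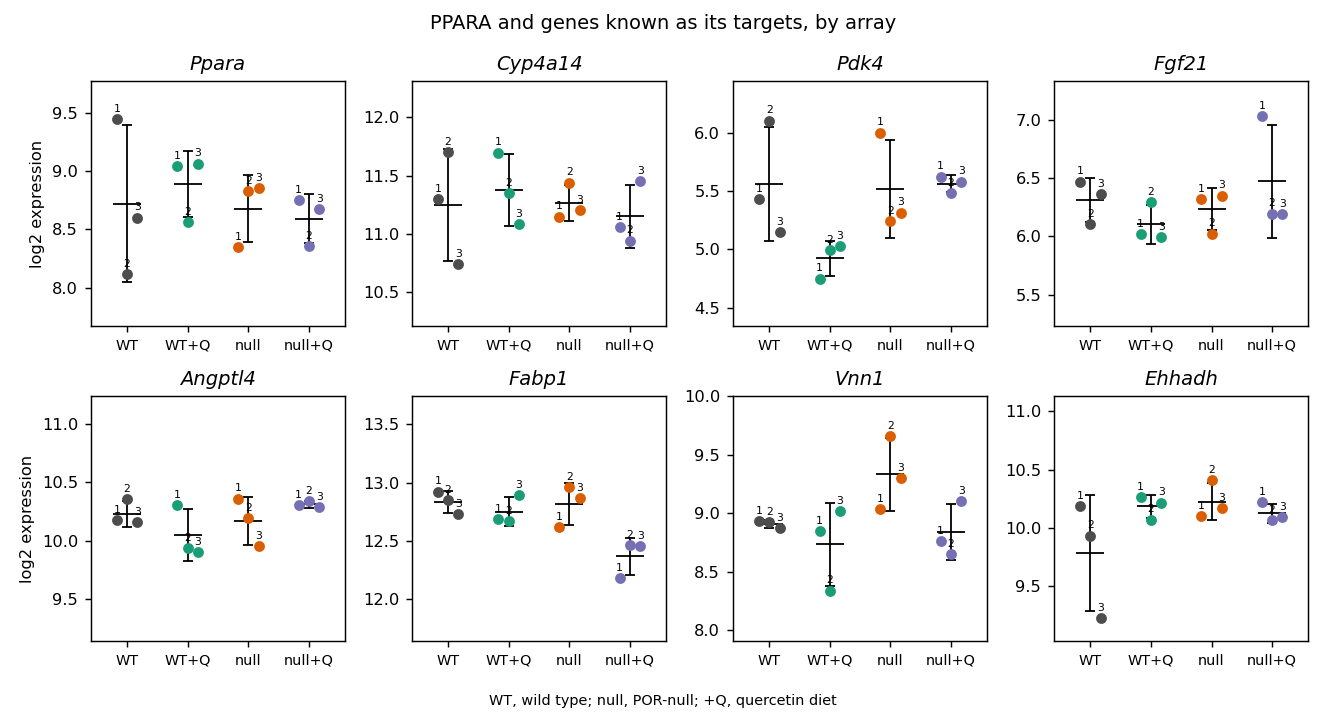
Log2 expression by array of Ppara and 7 genes known as its targets. WT is wild type, null is POR-null and +Q the quercetin diet, points are arrays (pools of 3 mice) with their numbers, bars are mean ± SD of 3 arrays, and each axis spans the same number of log2 units. Ppara varies most within wild-type control by its SD, followed by Ehhadh, Pdk4 and Cyp4a14, and Fabp1 is lowest in the POR-null quercetin arrays.

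Fabp1 (1417556_at), which carries fatty acids in the hepatocyte and to PPARA, read 12.92, 12.85 and 12.73 in wild-type control and 12.62, 12.96 and 12.87 in POR-null control, overlapping groups. With quercetin it read 12.69, 12.67 and 12.89 in wild type and 12.18, 12.47 and 12.45 in POR-null. The POR-null quercetin arrays were the 3 lowest of the 12. The difference on the quercetin diet was -0.38 (SE 0.11, adjusted p = 0.0804) for this probe set, while the other Fabp1 probe set, 1448764_a_at, differed by -0.76 (SE 0.15, adjusted p = 0.0152) and was called lower. Averaged over diets they differed by -0.20 (SE 0.08, adjusted p = 0.13) and -0.36 (SE 0.10, adjusted p = 0.0475).

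Counted by arrays that did not overlap, 5 members were wholly higher and 1 wholly lower in POR-null control liver, beside 8.25% and 9.55% of all genes. On the quercetin diet 10 were wholly higher and 3 wholly lower, beside 12.2% and 13.5% of all genes and 28.9% and 14.0% of the brighter genes. With 6 arrays against 6, Cpt1a and Eci1 were the 2 members wholly higher (2.16% of all genes) and 0 were wholly lower (1.27%). On the control diet the brighter genes gave 18.6% wholly higher and 8.20% wholly lower. The difference of these shares from those of the members was not tested.

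The second question was how these genes responded to quercetin within 24 h. By limma 0 of the 33 members and 0 of the 22626 probe sets passed in wild type, in POR-null, averaged over genotypes or in the difference between genotypes, so the background is 0% of genes. Without wild-type control array 1, 151 probe sets were called in wild type, 24 averaged and 1 for the difference between genotypes, and of the members 0. At an unadjusted p under 0.05 there were 5 members in wild type, 4 in POR-null, 5 averaged and 2 for the difference between genotypes. In the same order there were 1074, 849, 1197 and 739 of the 12393 genes, and 1942, 1581, 2079 and 1397 probe sets. Of the members, 14 lay above 0 in wild type and 15 in POR-null, with medians of -0.04 and -0.03 beside -0.0047 and -0.0050 over all genes. The brighter genes had medians of 0.03 and 0.05, with 58.5% and 66% above 0. In wild type 1 member was wholly higher and 5 wholly lower (5.67% and 6.23% of all genes, 12.2% and 5.27% of the brighter genes). In POR-null 2 were wholly higher and 2 wholly lower (6.83% and 7.62% of all genes, 12.2% and 2.83% of the brighter genes). Averaged over genotypes 0 were wholly higher and 0 wholly lower (0.121% and 0.113%).

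**Figure D5:**
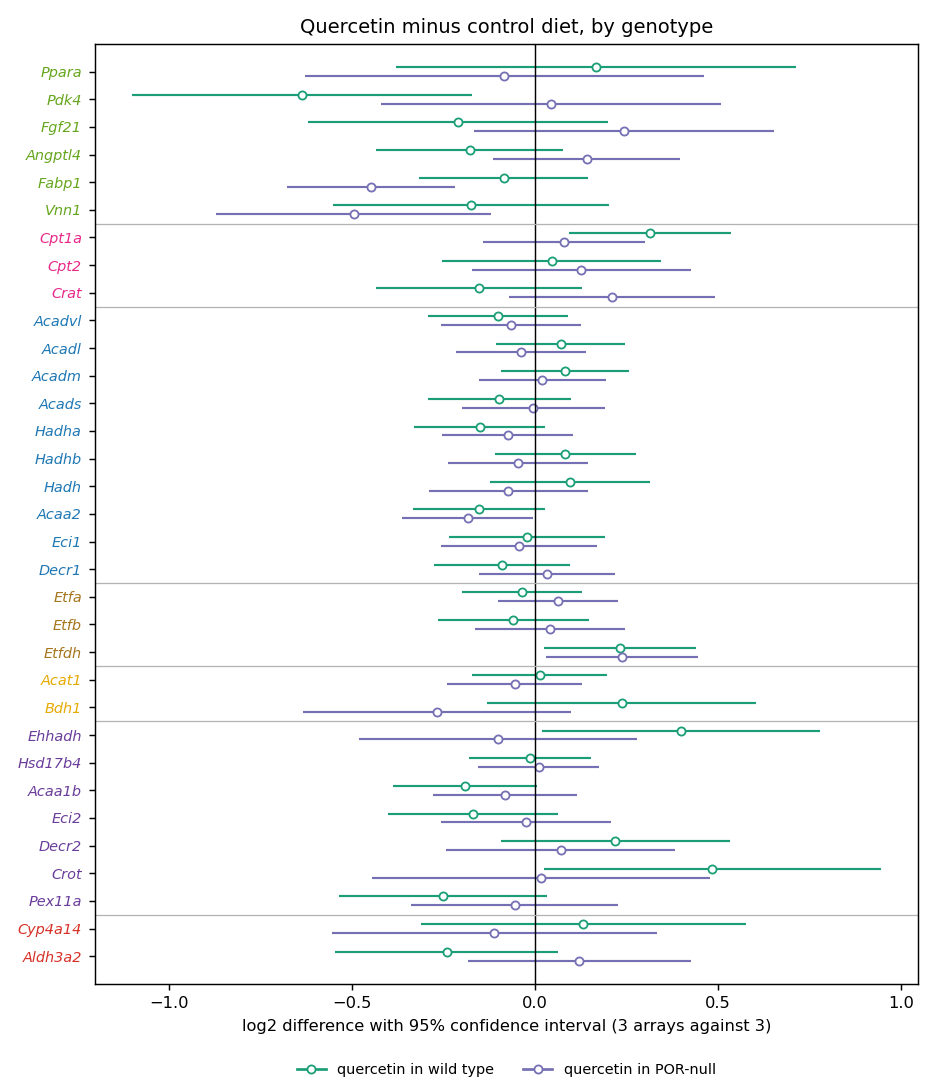
Quercetin minus control diet for each member, by genotype. The horizontal axis is the log2 difference with its 95% confidence interval, 3 arrays against 3, and every point is open because none passed the adjusted p of 0.05. Pdk4 lies lowest in wild type at -0.64 and Vnn1 and Fabp1 lowest in POR-null, at -0.50 and -0.45.

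In wild-type liver Pdk4 had the largest difference of the members. Its arrays read 5.43, 6.10 and 5.15 on the control diet and 4.75, 4.99 and 5.03 with quercetin, all quercetin arrays below all control arrays. The difference was -0.64 (SE 0.22, 95% confidence interval -1.10 to -0.17, adjusted p = 0.47), and without wild-type control array 2 it was -0.37. In POR-null liver it was 0.04 (SE 0.22), and the difference between genotypes was 0.68 (SE 0.31, adjusted p = 0.803). Pdk4 was the 1 member that the filter on dim probe sets left out.

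Cpt1a was the 1 member wholly higher with quercetin in wild type, at 0.31 (SE 0.10, adjusted p = 0.446) with a 95% confidence interval of 0.09 to 0.53. Without wild-type quercetin array 3 it was 0.20. In POR-null liver, where every control array already lay above every wild-type quercetin array, it differed by 0.08 (SE 0.10). Crot and Ehhadh differed by 0.48 (SE 0.22) and 0.40 (SE 0.18) in wild type, with overlapping arrays, and by 0.02 (SE 0.22) and -0.10 (SE 0.18) in POR-null. Without wild-type control array 3, its lowest, Ehhadh differed by 0.12 in wild type. Crot was low in wild-type control arrays 2 and 3, at 10.16 and 9.95 against 10.83 in array 1. Aldh3a2 differed by -0.24 (SE 0.14) and 0.12 (SE 0.14) in wild type and POR-null. Without wild-type control array 2 the first was -0.10, and the second ranged from 0.011 without POR-null control array 2 to 0.27 without POR-null control array 1.

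Wholly lower with quercetin in wild type were, besides Pdk4, Hadha, Acaa2, Acaa1b and Eci2, by 0.15 to 0.19 in size. Acaa2 differed by -0.15 (SE 0.08, adjusted p = 0.645) in wild type and -0.18 (SE 0.08, adjusted p = 0.705) in POR-null, wholly lower in both. Acaa1b differed by -0.19 (SE 0.09, adjusted p = 0.596) and -0.08 (SE 0.09). Bdh1 had opposite signs, 0.24 (SE 0.17) in wild type and -0.27 (SE 0.17) in POR-null, and the difference between genotypes was -0.50 (SE 0.24, adjusted p = 0.807). Without wild-type quercetin array 3 the wild-type value of Bdh1 was 0.05, and without POR-null control array 3 the POR-null value was -0.13.

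Etfdh, which passes electrons from electron transfer flavoprotein to ubiquinone, had nearly equal differences in both genotypes. It read 9.66, 9.34 and 9.37 in wild-type control and 9.65, 9.72 and 9.70 in wild-type quercetin. POR-null arrays read 9.43, 9.50 and 9.58 on the control diet and 9.73, 9.64 and 9.86 with quercetin. Wild-type control array 1 lay inside the quercetin range, and the POR-null groups did not overlap. The differences were 0.23 (SE 0.10) and 0.24 (SE 0.10), with an average of 0.24 (SE 0.07, adjusted p = 0.343).

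In POR-null liver Fabp1 had the lowest p of the members. All 3 quercetin arrays lay below all 3 control arrays, at 12.37 ± 0.16 against 12.82 ± 0.18 (SD, n = 3). The difference was -0.45 (SE 0.11, 95% confidence interval -0.68 to -0.22, adjusted p = 0.607), and -0.66 (SE 0.15, adjusted p = 0.607) for the second probe set. In wild type the 2 probe sets disagreed in sign, at -0.09 (SE 0.11) and 0.14 (SE 0.15, adjusted p = 0.829). The difference between genotypes was -0.36 (SE 0.15, adjusted p = 0.803). Vnn1 read 9.04, 9.66 and 9.30 in POR-null control and 8.76, 8.65 and 9.11 in POR-null quercetin, and differed by -0.50 (SE 0.18, adjusted p = 0.648). Crat was wholly higher, at 0.21 (SE 0.13, adjusted p = 0.789).

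Of the 6 regulators and secreted factors, 1 lay above 0 with quercetin in wild type and 3 in POR-null, with medians of -0.18 and -0.02, and 0 passed. Ppara was the 1 above 0 in wild type. The omega-hydroxylase Cyp4a14 differed by 0.13 in wild type (95% confidence interval -0.31 to 0.58) and -0.11 in POR-null (-0.56 to 0.33). Ppara itself differed by 0.17 (-0.38 to 0.71) and -0.08 (-0.63 to 0.46). Fgf21 differed by -0.21 (SE 0.19) and 0.24 (SE 0.19), and Angptl4 by -0.18 (SE 0.12) and 0.14 (SE 0.12). The intervals of Cyp4a14 and Ppara reach well to both sides of 0.

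The difference between genotypes in the response to quercetin had an unadjusted p under 0.05 for Pdk4 and Fabp1 alone. In the other steps the lowest p belonged to Crat at 0.36 (SE 0.19, adjusted p = 0.825), Hadh at -0.17 (SE 0.14, adjusted p = 0.858), Etfa at 0.10 (SE 0.11, adjusted p = 0.893), Ehhadh at -0.50 (SE 0.25, adjusted p = 0.817) and Aldh3a2 at 0.36 (SE 0.20, adjusted p = 0.826). Averaged over genotypes the lowest p of a member was that of Fabp1, at -0.27 (SE 0.08, adjusted p = 0.335), and in the other steps it belonged to Etfdh, as given with its arrays, and to Cpt1a at 0.20 (SE 0.07, adjusted p = 0.435), Acaa2 at -0.17 (SE 0.06, adjusted p = 0.422), Acaa1b at -0.14 (SE 0.06, adjusted p = 0.549), Aldh3a2 at -0.06 (SE 0.10, adjusted p = 0.885) and Acat1 at -0.02 (SE 0.06, adjusted p = 0.936). The comparisons of one diet or genotype share arrays with the averaged ones and are not separate evidence.

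By step, the averaged genotype medians were 0.25 in the carnitine shuttle (3 of 3 above 0), 0.11 in mitochondrial beta-oxidation (7 of 10), 0.04 in electron transfer flavoprotein (2 of 3) and -0.04 in the ketogenic pair (1 of 2). They were 0.19 in peroxisomes (6 of 7), 0.20 in the microsomal pair (1 of 2) and 0.12 among regulators and secreted factors (4 of 6). After quantile normalization the same medians were 0.18, 0.0043, -0.07, -0.14, 0.10, 0.11 and 0.07. The carnitine shuttle was the step whose members all kept a positive sign.

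Other genes of the pathway were read from a list of 80, of which 67 were measured. Averaged over diets 9 rose and 3 fell, 17.9% beside 7.94% of all genes and 20.1% of the brighter genes. Their median was 0.06, beside -0.02 over all genes and 0.05 over the brighter genes. On the quercetin diet 5 rose and 2 fell, 10.4% beside 2.49% of all genes and 8.49% of the brighter genes. On the control diet 1 rose and 0 fell, 1.49% beside 1.24% of all genes and 4.2% of the brighter genes. The list holds both brighter and dimmer genes. Among 11 partner receptors and coactivators, Pparg, the receptor of fat storage, rose by 0.55 (SE 0.08, adjusted p = 0.00123) and was the only one called. It read 6.04, 6.22 and 5.86 in wild-type control and 6.66, 6.49 and 6.29 in POR-null control, without overlap.

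Of 10 genes of uptake, activation and carnitine handling, 2 rose. Acacb, the acetyl-CoA carboxylase that makes the malonyl-CoA which inhibits CPT1, read 6.91, 6.96 and 7.15 in wild-type control, 7.16, 6.94 and 6.84 in wild-type quercetin, 7.80, 7.90 and 7.19 in POR-null control and 7.90, 7.47 and 7.54 in POR-null quercetin. Every POR-null array lay above every wild-type array, and Acacb rose by 0.64 (1.56-fold, SE 0.12, adjusted p = 0.00473). Acsl4, an acyl-CoA synthetase that prefers arachidonate, rose by 0.70 on the control diet (SE 0.16, adjusted p = 0.048) and by 0.49 averaged. Its control-diet call stood in 1 of the 6 fits without 1 array of these groups (adjusted p up to 0.236), and was lost with the block, with array weights, without the trend and with only the groups compared. With the mean of its probe sets Acsl4 differed by 0.12 on the control diet and 0.18 averaged, and neither was called.

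Of 12 further mitochondrial genes 2 rose. Acad10, an acyl-CoA dehydrogenase family member, read 6.60, 6.72 and 6.91 in wild-type quercetin and 8.02, 8.14 and 7.35 in POR-null quercetin, and rose by 1.09 (2.13-fold, SE 0.18, adjusted p = 0.00639). It rose by 0.85 averaged over diets, and Acad9, of the same family and also an assembly factor of complex I, by 0.44 (adjusted p = 0.00326). Slc16a7, a carrier of lactate and ketone bodies, rose by 0.67 (adjusted p = 0.0081), the 1 call among 3 genes of ketone handling.

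The 22 further peroxisomal genes gave 3 rises and 2 falls averaged over diets. Acox2, the oxidase for branched acids and bile acid side chains, read 10.02, 9.77 and 9.97 in wild-type control and 10.64, 10.29 and 10.53 in POR-null control, and rose by 0.57 (SE 0.10, adjusted p = 0.00263). The transporter Abcd2 and the membrane channel Pxmp2 rose by 0.43 and 0.27, each called in 3 of 12 fits without 1 array (adjusted p up to 0.103 and 0.109). Abcd2 was dim, at a mean of 4.54 over the 12 arrays, and the filter on dim probe sets left it out. After quantile normalization Pxmp2 differed by 0.16 and was not called, nor was it without the trend. Pecr, a peroxisomal enoyl-CoA reductase, fell by 0.39 (SE 0.07, adjusted p = 0.00514) and the epoxide hydrolase Ephx2 by 0.28 (adjusted p = 0.0263). With the mean of its probe sets Pecr differed by -0.17 (adjusted p = 0.175), and Ephx2 was called in 6 of 12 fits without 1 array. Of 9 microsomal genes Cyp4v3, a fatty acid omega-hydroxylase, fell by 0.37 (adjusted p = 0.00627). With quercetin 0 of the 67 passed in wild type, in POR-null or averaged (limma), and 8, 8 and 11 had an unadjusted p under 0.05. In the same comparisons 1074, 849 and 1197 of all 12393 genes had an unadjusted p under 0.05.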

How the data were processed

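RNA from 12 liver pools was hybridised to Affymetrix mouse 430A arrays. The authors deposited log2 expression values per probe set, and MAS5 and RMA are named per the submitters' processing notes, whose role for these values is not given in the sources used here. The values ran from 2.57 to 14.2, with array medians of 5.93 to 5.99, and were used without further scaling. Arrays give no read depth, so their number limits the precision: the median half-width of a 95% confidence interval was 0.239. Each array is a pool of 3 mice, so p-values measure the spread between pools.

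With R 4.3.3 and limma 3.58.1, 1 mean per group was fitted to all 12 arrays using an intensity trend. Adjustment, by Benjamini-Hochberg, ran over 22626 probe sets, after 64 control probe sets were left out. Tests were two-sided at 0.05, and the code was tested on simulated data. Of the probe sets, 20380 had 1 symbol, 691 several and 1555 none, and none was named from several. The diets were contrasted within each genotype, on average and as a difference between genotypes, and the genotypes within each diet and on average. Full values were given for members called in any contrast, the member of each step with the lowest p, and members whose probe sets disagree, and wider pathway genes were named where called. The members and all lists were chosen with earlier results of these data known.

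Alternatives were a filter leaving out the 40% dimmest probe sets, quantile normalization, no trend, a block for the pool number, robust estimation, array weights, only the groups compared, the mean of a gene's probe sets, and leaving out each array. Promoter sequences came from RefSeq, and all 33 members matched a RefSeq symbol. Figures were drawn with matplotlib 3.10.9.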

Additional observations from a re-analysis of the deposited data

How the results depend on the processing

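No member passed in any quercetin comparison under any alternative run. Calls rest on the adjusted p, so with 3 pools a group a 95% confidence interval that excluded 0 was not enough for a call. Examples with quercetin were Pdk4 in wild type (-1.10 to -0.17, adjusted p = 0.47 in limma) and Fabp1 in POR-null (-0.68 to -0.22, adjusted p = 0.607). The lack of calls therefore does not show that quercetin left these genes unchanged. Probe sets called with quercetin in wild type numbered 0, against 1 with the dim-probe filter, 1 without the trend and 2 with the pool number as a block. POR-null against wild type on the control diet called 262 probe sets and 30 when only the groups compared were fitted. Members called there numbered 0 with the mean of a gene's probe sets, and wider pathway genes 0 without the trend, 2 with array weights and 0 with only the groups compared. On the quercetin diet 527 probe sets became 1052 with array weights and 950 with only the groups compared. Members became 2 with array weights (Cpt1a added), 2 with only the groups compared (Pdk4 added) and 2 with the mean of probe sets. Fabp1 was among the last, called lower at -0.57. Wider genes became 11 with array weights. The cause of these shifts was not tested.

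Leaving out 1 array gave 0 to 151 probe sets for quercetin in wild type (151 without wild-type control array 1), 0 to 4 in POR-null, 0 to 24 averaged and 0 to 1 for the difference between genotypes. It gave 35 to 756 for POR-null on the control diet (756 without the same array), 127 to 389 on the quercetin diet and 991 to 2128 averaged (1714 with all arrays). Members called ranged from 0 to 3, 0 to 2 and 2 to 7, and wider genes from 0 to 4, 3 to 5 and 9 to 14. The averaged quercetin difference of Acat1 changed sign to 0.042 (adjusted p = 0.857) with the mean of its probe sets and ranged from -0.056 to 0.016 without 1 array (0.016 without wild-type control array 1), and that of Aldh3a2 ranged from -0.12 to 0.012 (0.0086 without wild-type control array 2 and 0.012 without POR-null control array 1). The averaged genotype difference of Acat1 was -0.0073 after quantile normalization.

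Of 18 same-number correlations of deviations, from -0.18 to 0.24, 5 were over 0.1. Correlations between different pool numbers were not computed, so whether pool numbers pair the arrays could not be decided. With the replicate block 4 members were called averaged over diets, Acadm, Aldh3a2, Cpt1a and Eci1. A fit of only the groups compared was not run for the averaged contrasts or the difference between genotypes, because they use all groups.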
